A study of Mus musculus with 2 samples.

Results

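Toll-like receptors are membrane proteins that bind molecules of microbes and set off inflammatory signalling. Those at the cell surface bind lipids and proteins of bacteria, and those in endosomes bind nucleic acids. Kupffer cells, the resident macrophages of the liver sinusoids, meet microbial products that arrive from the gut in portal blood. The 10 genes described here are the receptors Tlr2, Tlr3, Tlr4, Tlr7, Tlr8, Tlr9, Tlr12 and Tlr13 with the Tlr4 co-receptors Cd14 and Ly96. They were chosen by symbol from the 26078 genes listed, and all 10 were found. In the GRCm38 annotation, Tlr7, Tlr8 and Tlr13 lie on chromosome X, Tlr4 and Tlr12 on chromosome 4, and the other 5 on a chromosome each.

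The measurements are droplet 3' single-cell RNA counts of nonparenchymal liver cells enriched with magnetic beads for F4/80, which mouse macrophages carry on their surface. There were 2 untreated male mice aged 8 to 10 weeks, 1 Spta sph/sph mouse and 1 Spta wt/wt littermate. The sph allele disrupts the spectrin of the red cell skeleton, and homozygous mice have fragile red cells. Each cell barcode carries a library number, 2 or 1, but which mouse gave which number is not stated in the sources used here. The libraries are therefore called by number, and the genotype behind a difference between them was not analysed here. With 1 mouse per genotype, and cells not being replicates, no difference between the libraries has a replicate check and none was tested. Intervals are exact 95% intervals and cover counting error only.

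Library 2 held 9726 barcodes with 56947765 UMIs (unique molecular identifiers, which count transcripts), and library 1 held 8907 barcodes with 33099802 UMIs. A filter of 200 or more genes and no more than 20% mitochondrial UMIs left 6942 cells in library 2 and 3488 in library 1, or 71.4% and 39.2% of the barcodes. The median mitochondrial share before this filter was 14.2% in library 2 and 24.3% in library 1. In all, 955 barcode sequences occurred in both libraries. Among kept cells, 44 of library 2 and 815 of library 1 carried a barcode sequence that held more than 5 times as many UMIs in the other library. These shallow shared barcodes were kept, and results that rest on them are also given without them. Cells were assigned to lineages by marker genes, none of which is among the 10 genes.

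Kupffer-like cells numbered 3870 in library 2, with a median of 6366 UMIs, and 2200 in library 1, with a median of 3503 UMIs. All 10 Kupffer markers were detected in both libraries, with a summed level of 26795 CPM (UMIs scaled to a common total of the lineage) in library 2 and 27066 CPM in library 1. The 10 monocyte markers summed to 114 CPM in Kupffer-like cells of library 2 and to 270 CPM in those of library 1. When the kept cells were clustered, most Kupffer-like cells of the libraries fell into different clusters. The largest Kupffer-like cluster held 1731 cells of library 2 and 79 of library 1, and the next largest held 21 of library 2 and 1683 of library 1. The comparisons between libraries in Kupffer-like cells are therefore also comparisons between these clusters. There were 111 monocyte-like cells in library 2 and 151 in library 1, and 87 dendritic-like cells in library 2 and 52 in library 1. Endothelial-like cells numbered 122 in library 2 and 275 in library 1. The clusters named for these lineages were split by library too. The largest monocyte-like cluster held 14 cells of library 2 and 336 of library 1. The endothelial-like cluster held 2 cells of library 2 and 343 of library 1, and the dendritic-like cluster 307 and 11. Most monocyte-like and endothelial-like cells of library 2, and most dendritic-like cells of library 1, thus lay outside these clusters. That limits the library ratios in these lineages. Hepatocyte-like cells (115 in library 2 and 60 in library 1) held 14 or fewer UMIs of the 10 genes together in each library. They are not described further but enter the pattern correlations below. The 581 erythroid-like cells of library 2 serve as a measure of free RNA, since red cell precursors should lack these genes. These cells were deep, with a median of 9268 UMIs, and whether their levels hold for shallower lineages was not tested. Each of the 109 erythroid-like cells in library 1 was a shallow shared barcode, so library 1 has no such measure. A setting below that subtracts free RNA also drew on T or natural killer-like cells. In library 1 it rested on 24 of those cells alone, in which Ly96 and Tlr4 had 1 UMI each, or 11.3 CPM.

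**Figure D1:**
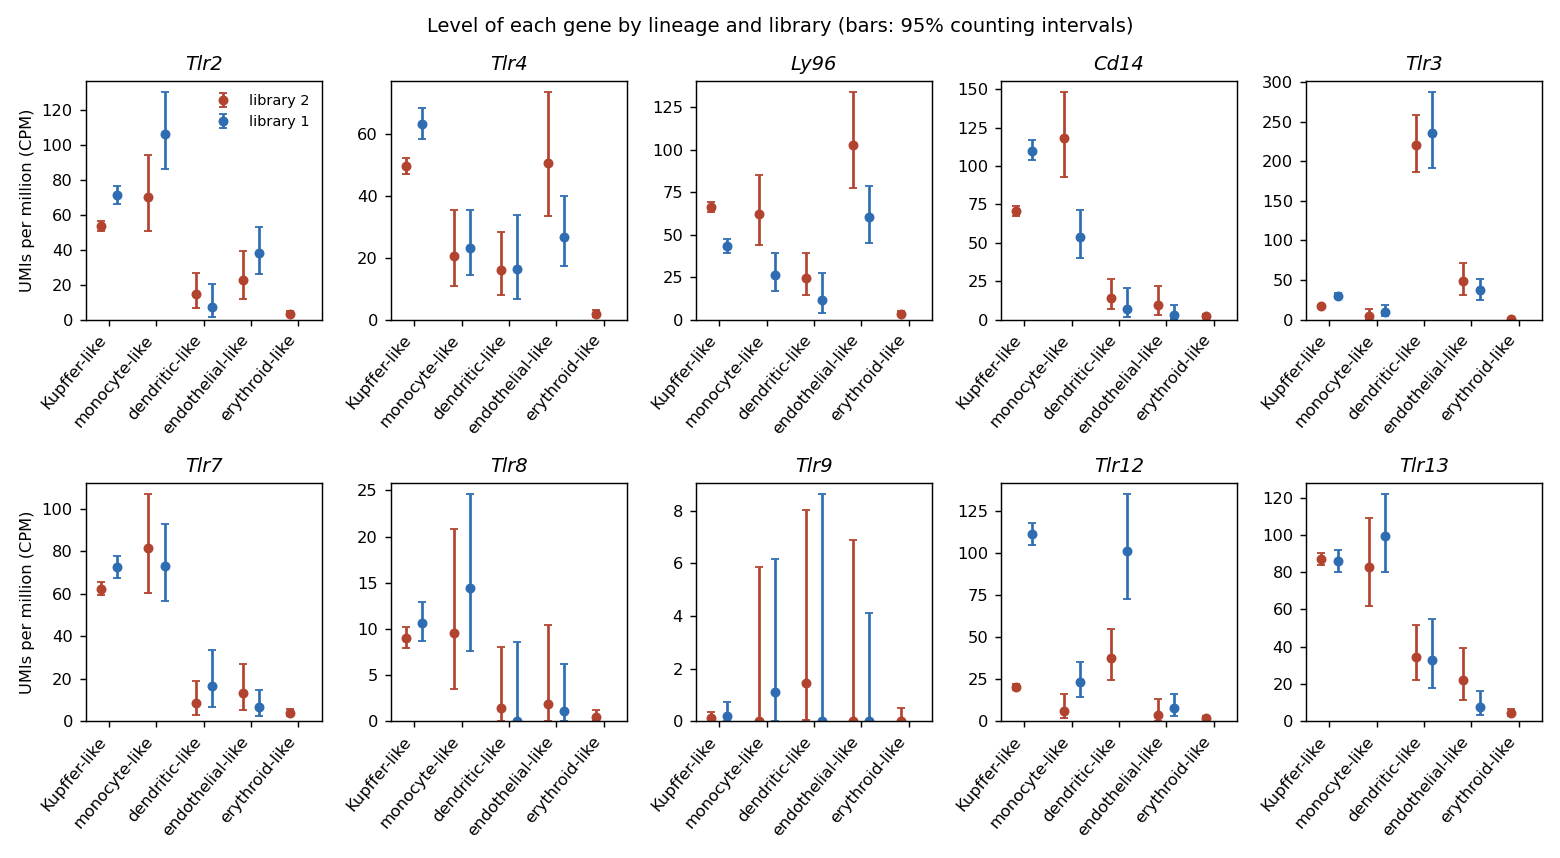
Level of each gene in CPM (linear axes that differ between panels) in 5 lineages, library 2 left and library 1 right of each position, with exact Poisson 95% intervals. Tlr3 stood highest in dendritic-like cells of both libraries, Tlr12 was higher in library 1 than in library 2 in Kupffer-like and dendritic-like cells, and all 10 genes were at 4.54 CPM or less in erythroid-like cells of library 2.

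Kupffer-like cells of library 2 had less Tlr12 than those of library 1, by 5.50-fold. In mice, Tlr12 works with Tlr11 in the recognition of profilin, a protein of protozoan parasites. The gene spans chr4:128615443-128618619 (GRCm38, minus strand). Its level was 20.3 CPM in library 2 (95% interval 18.6 to 22.0) and 111 CPM in library 1 (105 to 118), from 570 and 1117 UMIs. The log2 ratio was -2.46 (-2.61 to -2.31). Among 8214 genes that reached 10 CPM in 1 or both libraries, 55 had a lower ratio. Over these genes the median log2 ratio was -0.32, and over the 2610 genes that reached 50 CPM in each library it was -0.19. Ratios are given without taking this shift off. The 519 shallow shared barcodes among Kupffer-like cells of library 1 held 5 UMIs of Tlr12, or 13.8 CPM. Without shallow shared barcodes the ratio was -2.51 (-2.66 to -2.36).

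Erythroid-like cells of library 2, used as a measure of free RNA, had 1.84 CPM of Tlr12. In the same library, B-like cells had 10.00 CPM and stellate-like cells 9.99 CPM, from 3 UMIs each. The erythroid-like level is thus not an upper limit for free RNA in other lineages. With each Kupffer-like cell thinned to 1500 UMIs, to put both libraries at 1 depth, Tlr12 was detected in 2.74% of 2957 cells of library 2 (2.18 to 3.39) and 16.3% of 1438 cells of library 1 (14.5 to 18.4). Thinning left out 913 shallower cells of library 2 and 762 of library 1. Before thinning, the shares were 12.6% in library 2 and 32.3% in library 1, at the different depths given above.

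Tlr12 also had lower values in library 2 in other lineages, on far fewer UMIs. Dendritic-like cells had 37.5 CPM in library 2, from 26 UMIs, and 101 CPM in library 1, from 43 UMIs, a log2 ratio of -1.42 (-2.19 to -0.69). Monocyte-like cells had 6.37 CPM in library 2 and 23.2 CPM in library 1, from 4 and 21 UMIs, a log2 ratio of -1.86 (-3.87 to -0.30). The Kupffer markers summed to 3857 CPM in monocyte-like cells of library 2 and to 4227 CPM in those of library 1, and their part in this Tlr12 was not tested. Endothelial-like cells had 2 UMIs in library 2 and 7 in library 1, too few for a direction (-1.07, interval -4.37 to 1.33). Tlr11, which had 0.533 CPM in Kupffer-like cells of library 2 and 2.29 CPM in those of library 1, had 128 and 119 CPM in dendritic-like cells, from 89 UMIs in library 2 and 51 in library 1. Both genes were thus measured in dendritic-like cells of both libraries, whereas in Kupffer-like cells Tlr11 rested on 15 UMIs in library 2 and 23 in library 1.

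The promoter of Tlr12 is printed because its ratio in Kupffer-like cells was the lowest of the 10 genes, that of Tlr13 because its level in Kupffer-like cells was nearly equal in both, and that of Tlr3 because it was highest in dendritic-like cells. RefSeq promoters (build GRCm38.p6, 250 bases before to 50 after the start) were searched for 6 of the 10 genes, namely Tlr2, Tlr3, Tlr8, Tlr9, Tlr12 and Tlr13. Those of Tlr4, Tlr7, Cd14 and Ly96 were not searched, so the motif counts do not cover them. Capitals mark matches on either strand to GAGGAA (a form of the site of PU.1, a factor of myeloid cells), GGGNNTT (the opening letters of an NF-kB site) or TGCTGA (part of a site of MAF factors). The printed windows are chr4:128618570-128618869 on the minus strand (Tlr12), chrX:106143025-106143324 on the plus strand (Tlr13) and chr8:45410331-45410630 on the minus strand (Tlr3).
Tlr12: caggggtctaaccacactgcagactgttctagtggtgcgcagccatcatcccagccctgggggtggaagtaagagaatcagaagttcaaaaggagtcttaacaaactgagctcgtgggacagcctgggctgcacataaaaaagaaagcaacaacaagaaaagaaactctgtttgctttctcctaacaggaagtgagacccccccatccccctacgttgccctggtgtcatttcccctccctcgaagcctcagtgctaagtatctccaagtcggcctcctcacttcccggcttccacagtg
Tlr13: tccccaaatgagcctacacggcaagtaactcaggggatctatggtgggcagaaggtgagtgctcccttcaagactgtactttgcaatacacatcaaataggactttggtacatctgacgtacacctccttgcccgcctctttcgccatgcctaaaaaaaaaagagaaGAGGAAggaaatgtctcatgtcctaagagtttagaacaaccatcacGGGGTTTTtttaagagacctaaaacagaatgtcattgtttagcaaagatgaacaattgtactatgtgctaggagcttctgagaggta
Tlr3: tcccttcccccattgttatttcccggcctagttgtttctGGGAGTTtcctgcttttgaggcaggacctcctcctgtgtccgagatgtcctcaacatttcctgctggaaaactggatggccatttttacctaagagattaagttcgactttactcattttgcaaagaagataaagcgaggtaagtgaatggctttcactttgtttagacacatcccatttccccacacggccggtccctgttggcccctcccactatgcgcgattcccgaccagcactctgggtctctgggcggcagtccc
None of the 3 motifs, as spelled, was in the Tlr12 window, and other spellings of these sites were not searched. Tlr13 held GAGGAA once, 83 bases before the start, and GGGNNTT at 2 overlapping positions, 37 and 36 bases before it. Tlr3 held GGGNNTT once, 211 bases before the start. Among the 6 promoters, GAGGAA was in 3 (Tlr8, Tlr9 and Tlr13), GGGNNTT in 4 (Tlr2, Tlr3, Tlr9 and Tlr13) and TGCTGA in 1 (Tlr8). Of the 32851 promoters of the same length that were counted, 28.3% held GAGGAA, 45.9% GGGNNTT and 19.5% TGCTGA. The GGGNNTT matches on both strands of Tlr2 overlapped as well, and no match of 1 motif overlapped one of another.

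Of the 9 genes that reached 10 CPM in Kupffer-like cells, 0 stood 2-fold or more higher in library 2 than in library 1, against 2.47% of all genes tested. Tlr12 alone was at least 2-fold lower, against 9.24% of all genes. The other 8 lay within 2-fold. The median log2 ratio of the 9 was -0.35, beside -0.32 for all genes tested.

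**Figure D2:**
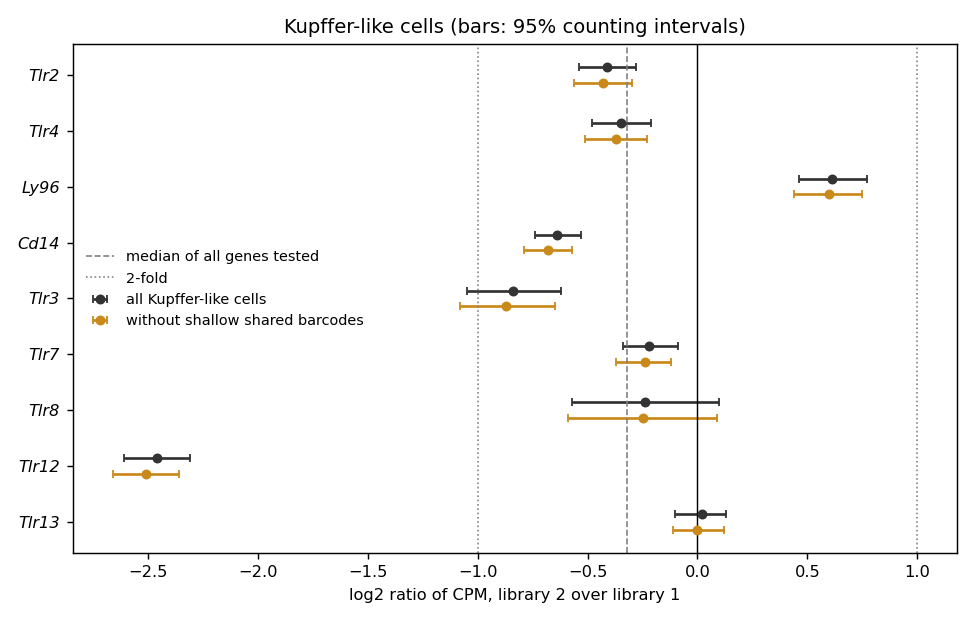
Log2 ratio of CPM in Kupffer-like cells, library 2 over library 1, for the 9 genes with at least 10 CPM in either library, with conditional exact 95% intervals, for all cells and without shallow shared barcodes. Tlr12 lies at -2.46, Ly96 at 0.61 is the one gene with its whole interval above 0, and leaving out the shared barcodes moves no gene across 0.

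In Kupffer-like cells, genes of the lipopolysaccharide receptor complex differed between the libraries in opposite directions. Tlr4 is its signalling chain, Ly96 encodes the protein that holds the lipid on Tlr4, and Cd14 hands the lipid over. Ly96 was higher in library 2, with 66.2 CPM in library 2 (63.2 to 69.3) and 43.3 CPM in library 1 (39.3 to 47.6), a log2 ratio of 0.61 (0.46 to 0.77). Cd14 was lower in library 2, with 70.9 CPM in library 2 (67.8 to 74.1) and 110 CPM in library 1 (104 to 117), a log2 ratio of -0.64 (-0.74 to -0.53). Tlr4 had 49.6 CPM in library 2 (47.0 to 52.3) and 63.1 CPM in library 1 (58.3 to 68.3), at -0.35 (-0.48 to -0.21), close to the median of all genes tested. Of all genes tested, 94.5% had a lower ratio than Ly96 and 24.7% a lower ratio than Cd14. Without shallow shared barcodes the ratios were 0.60 for Ly96, -0.68 for Cd14 and -0.37 for Tlr4.

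At 1500 UMIs per cell the shares of Kupffer-like cells differed in the same directions for Ly96 and Cd14. Ly96 was detected in 9.20% of cells of library 2 (8.18 to 10.3) and 6.47% of cells of library 1 (5.25 to 7.86). Cd14 was detected in 11.0% of cells of library 2 (9.89 to 12.2) and 14.5% of cells of library 1 (12.7 to 16.4). For Tlr4 the shares were 7.78% in library 2 and 8.62% in library 1, with overlapping intervals. At 1000 UMIs per cell the Tlr4 shares were 4.45% in library 2 (3.76 to 5.21) and 6.56% in library 1 (5.39 to 7.89), and these intervals do not overlap. Ly96 was then in 5.59% of cells of library 2 (4.82 to 6.44) and 3.91% of cells of library 1 (3.01 to 4.98), with overlapping intervals. Cd14 was in 6.30% of cells of library 2 (5.49 to 7.19) and 10.1% of cells of library 1 (8.65 to 11.7). Erythroid-like cells of library 2 had a median of 9268 UMIs before thinning. At 1500 UMIs per cell their shares were 0.189% for Ly96, 0.755% for Cd14 and 0.566% for Tlr4.

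Heat shock and early response genes, which react to the dissociation of tissue, also differed between the libraries. In Kupffer-like cells, 3 of 10 dissociation and stress genes were up by 2-fold or more in library 2 and 2 were down by as much, beside 2.47% higher and 9.24% lower among all genes tested. The heat shock gene Hspa1b had 81.1 CPM in library 2 and 5.59 CPM in library 1, and Hspa1a had 49.7 CPM in library 2 and 4.89 CPM in library 1. The early response gene Fos had 39.9 CPM in library 2 and 89.3 CPM in library 1, and Ier2 had 30.3 CPM in library 2 and 69.5 CPM in library 1. The stress factor gene Atf3 had 31.2 CPM in library 2 and 15.4 CPM in library 1. Other early response genes lay near each other, Jun with 56.5 CPM in library 2 and 53.4 CPM in library 1 and Egr1 with 41.1 CPM in library 2 and 39.3 CPM in library 1. The remaining 3, Junb, Dusp1 and Zfp36, were lower in library 2 by less than 2-fold. Their part in the level of Cd14 was not tested.

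**Figure D3:**
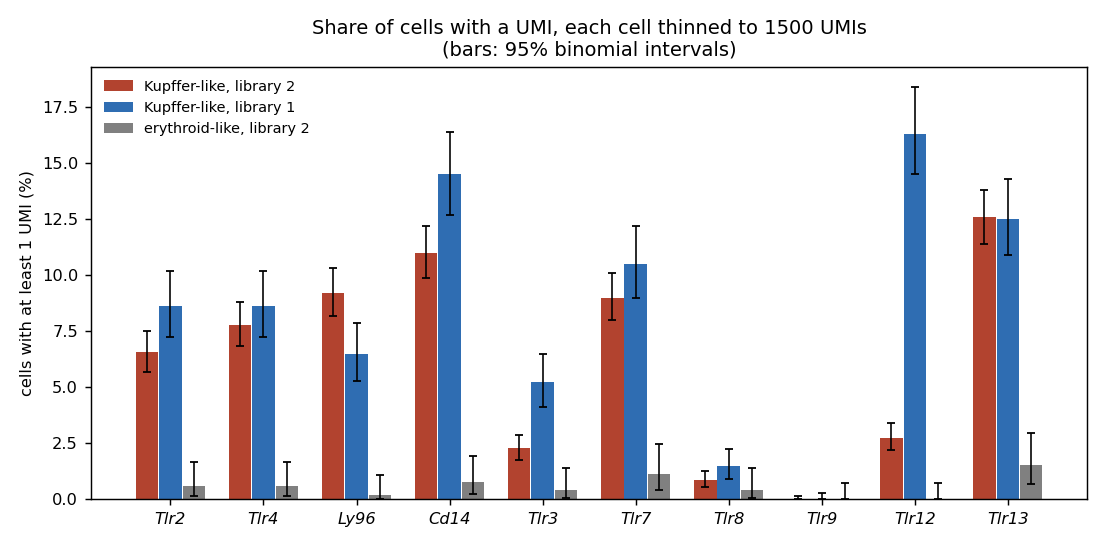
Share of cells with at least 1 UMI of each gene (%), each cell thinned to 1500 UMIs, for Kupffer-like cells of library 2 and library 1 and erythroid-like cells of library 2, with exact binomial 95% intervals. Tlr12 was in 2.74% of Kupffer-like cells of library 2 and 16.3% of those of library 1, while Tlr13 was in 12.6% and 12.5%.

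Tlr2, which binds bacterial lipoproteins together with Tlr1 or Tlr6, had 53.5 CPM in Kupffer-like cells of library 2 (50.8 to 56.3) and 71.1 CPM in those of library 1 (66.0 to 76.5). The log2 ratio was -0.41 (-0.54 to -0.28), and 41.9% of all genes tested had a lower one. Its partner Tlr1 had 28.0 CPM in library 2 and 22.9 CPM in library 1, at 0.29 (0.07 to 0.51), and Tlr6 had 15.9 CPM in library 2 and 25.6 CPM in library 1, at -0.69 (-0.91 to -0.46). The 2 partners thus lay on opposite sides of 0. Tlr5, the receptor of flagellin, had 9 UMIs in library 2 and 25 in library 1 over all Kupffer-like cells.

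Among the endosomal receptors, Tlr3, which binds RNA duplexes, was lower in Kupffer-like cells of library 2, with 16.9 CPM there (15.4 to 18.4) and 30.1 CPM in library 1 (26.8 to 33.7). The log2 ratio was -0.84 (-1.05 to -0.62), with 14.8% of all genes tested below it. At 1500 UMIs per cell it was in 2.27% of cells of library 2 (1.76 to 2.87) and 5.22% of cells of library 1 (4.12 to 6.49). At 1000 UMIs per cell the intervals overlapped, with 1.36% in library 2 (0.989 to 1.82) and 2.40% in library 1 (1.70 to 3.27). Tlr7, a receptor of RNA strands, had 62.4 CPM in library 2 and 72.5 CPM in library 1, at -0.22 (-0.34 to -0.09). With the median ratio of genes that reached 50 CPM in each library set to 0, it was -0.03.

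Tlr13, which in mice binds ribosomal RNA of bacteria, had 87.0 CPM in Kupffer-like cells of library 2 (83.6 to 90.5) and 86.0 CPM in those of library 1 (80.3 to 91.9). Its log2 ratio of 0.02 (-0.10 to 0.13) includes 0, and 74.4% of all genes tested had a lower one. On the scale with that median set to 0, it was 0.21. Tlr8, close kin of Tlr7, had 9.03 CPM in library 2 and 10.7 CPM in library 1, at -0.24 (-0.57 to 0.10). Tlr9, the receptor of bacterial DNA, had 4 UMIs in library 2 and 2 in library 1 over all Kupffer-like cells. The erythroid-like cells of library 2 held 0 UMIs of Tlr9, which at a floor of 3 UMIs allows up to 0.425 CPM. Each other lineage described here held at most 1 UMI of Tlr9 in a library, so differences in Tlr9 were not detectable at this depth.

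The order of the 4 lineages was compared within each library. Among the 9 genes that reached 10 CPM in some lineage, 5 had the same highest lineage in both libraries (Tlr2, Tlr7 and Tlr8 in monocyte-like cells, Tlr3 in dendritic-like cells and Ly96 in endothelial-like cells). For Tlr7 and Tlr8 the intervals did not separate monocyte-like from Kupffer-like cells in either library. For Tlr2 the log2 ratio of monocyte-like over Kupffer-like cells was 0.39 in library 2 (-0.08 to 0.82), where they were not separated, and 0.58 in library 1 (0.25 to 0.89).

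Tlr3 was highest in dendritic-like cells. Its level there was 221 CPM in library 2 (187 to 258) and 236 CPM in library 1 (192 to 287), from 153 and 101 UMIs. These levels were 13.1-fold that of Kupffer-like cells in library 2 (log2 ratio 3.71, 3.44 to 3.98) and 7.84-fold in library 1 (2.97, 2.63 to 3.30). Cells with a UMI of Xcr1 or Clec9a, markers of cross-presenting dendritic cells that were also in the marker list, had 282 CPM in library 2 (61 cells) and 324 CPM in library 1 (30 cells). Dendritic-like cells without either marker held 2 UMIs of Tlr3 in 26 cells of library 2 and 0 in 22 cells of library 1. Those without a marker were shallower, with medians of 5444 UMIs in library 2 and 4448 UMIs in library 1, against 8971 and 9474 UMIs in those with one. Tlr12 split the same way, with 26 of its 26 UMIs in library 2 and 42 of its 43 UMIs in library 1 in cells with Xcr1 or Clec9a. The ratio of Tlr3 between the libraries in dendritic-like cells was -0.10 (-0.47 to 0.28). The 52 dendritic-like cells of library 1 reached the minimum of 50 through a gate lowered after values had been seen, and at the stricter gate Tlr3 had 227 CPM in library 2, with too few cells in library 1 to compare.

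Endothelial-like cells came next in Tlr3, with 48.6 CPM in library 2 (31.7 to 71.2) and 36.9 CPM in library 1 (25.4 to 51.8). In library 2 this was 2.88-fold the level of Kupffer-like cells (log2 ratio 1.53, 0.90 to 2.10), and in library 1 the intervals did not separate them (0.29, -0.27 to 0.81). Ly96 was highest in endothelial-like cells of both libraries, at 103 CPM in library 2 (77.4 to 134) and 60.3 CPM in library 1 (45.3 to 78.7). Against Kupffer-like cells, its log2 ratio was 0.64 in library 2 (0.22 to 1.02) and 0.48 in library 1 (0.04 to 0.89). Cd14, by contrast, had 5 UMIs in endothelial-like cells of library 2 and 3 in those of library 1, or 9.35 and 3.35 CPM. Endothelial-like cells also carried Kupffer markers, all 10 of them, with sums of 3963 CPM in library 2 and 1674 CPM in library 1. Their part in these levels was not tested.

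Between the libraries, endothelial-like cells had 50.5 CPM of Tlr4 in library 2 and 26.8 CPM in library 1, from 27 and 24 UMIs, a log2 ratio of 0.91 (0.06 to 1.77). Ly96 lay at 0.77 (0.20 to 1.34). At 1500 UMIs per cell Tlr4 was in 9.73% of these cells of library 2 and 3.88% of those of library 1. At 1000 UMIs per cell the order reversed, with 2.52% in library 2 and 3.86% in library 1. Tlr13 had 12 UMIs in library 2 and 7 in library 1 and was the 1 of 6 genes tested there that was at least 2-fold higher, against 6.41% of all genes. Its level was 22.4 CPM in library 2 and 7.82 CPM in library 1 (log2 ratio 1.52, 0.06 to 3.10). The Kupffer markers in endothelial-like cells were also higher in library 2, at 3963 CPM against 1674 CPM in library 1. Their part in these ratios was not tested. At least 2-fold lower were 0 of the 6, against 14.3% of all genes. This count depends on the setting. With free RNA subtracted Tlr4 reached 1.64 and Ly96 1.01, and Tlr7 passed 2-fold with up to 40% mitochondrial UMIs (1.60) and with the size factor (1.04). In library 1 the subtraction took off 11.3 CPM of Tlr4 and of Ly96, each from 1 UMI.

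In monocyte-like cells, Cd14 stood on the opposite side of 0 from its ratio in Kupffer-like cells. It had 118 CPM in library 2 (92.6 to 148) and 54.1 CPM in library 1 (40.1 to 71.6), from 74 and 49 UMIs, a log2 ratio of 1.12 (0.58 to 1.67). Ly96 had 62.2 CPM in library 2 and 26.5 CPM in library 1, at 1.23 (0.46 to 2.03). The Ly96 ratio was under 2-fold with at most 10% mitochondrial UMIs (0.98) and with 5 markers required (0.73). It was 1.93 with free RNA subtracted, where 11.3 CPM, from 1 UMI, was taken off in library 1. Cd14 and Ly96 were the 2 of 8 genes tested that stood higher by 2-fold or more, against 5.67% of all genes. Tlr12 was the 1 that was at least 2-fold lower, against 10.6%. Tlr2 had 70.1 CPM in library 2 and 106 CPM in library 1, at -0.60 (-1.15 to -0.07), and Tlr7 and Tlr13 had intervals that include 0. Monocyte-like cells of library 2 had 8665 CPM of the monocyte markers, 3857 CPM of Kupffer markers and 551 CPM of neutrophil markers, and those of library 1 had 6440, 4227 and 177 CPM. Stress genes differed in monocyte-like cells as well. Hspa1b had 594 CPM in library 2 and 19.9 CPM in library 1, Hspa1a had 241 CPM in library 2 and 4.42 CPM in library 1, and Fos had 355 CPM in library 2 and 103 CPM in library 1. The part of these differences in the level of Cd14 was not tested.

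Of 8 genes tested in dendritic-like cells, Tlr2, Cd14 and Ly96 were at least 2-fold higher in library 2, against 5.46% of all genes, on 10, 10 and 17 UMIs in library 2 and 3, 3 and 5 UMIs in library 1. All 3 intervals include 0. With up to 40% mitochondrial UMIs the log2 ratios were 0.15 for Tlr2 and 0.74 for Cd14, and with free RNA subtracted they were 0.68 and 0.80, so these 2 were then within 2-fold. Ly96 lay at the 2-fold line with up to 40% mitochondrial UMIs. With free RNA subtracted Ly96 reached 5.63, and Tlr4, at -0.05 without this step, reached 1.43. In library 1 the subtraction took off 11.3 CPM, from 1 UMI, beside levels of 11.7 CPM for Ly96 and 16.4 CPM for Tlr4. The values with free RNA subtracted thus turn on 1 UMI of each gene. The Kupffer markers summed to 2328 CPM in dendritic-like cells of library 2 and to 1670 CPM in those of library 1, and their part in these values was not tested. Tlr12 was the 1 that was at least 2-fold lower, against 12.7% of all genes. The lineage ratios are shown together in the plot of all 4 lineages.

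**Figure D4:**
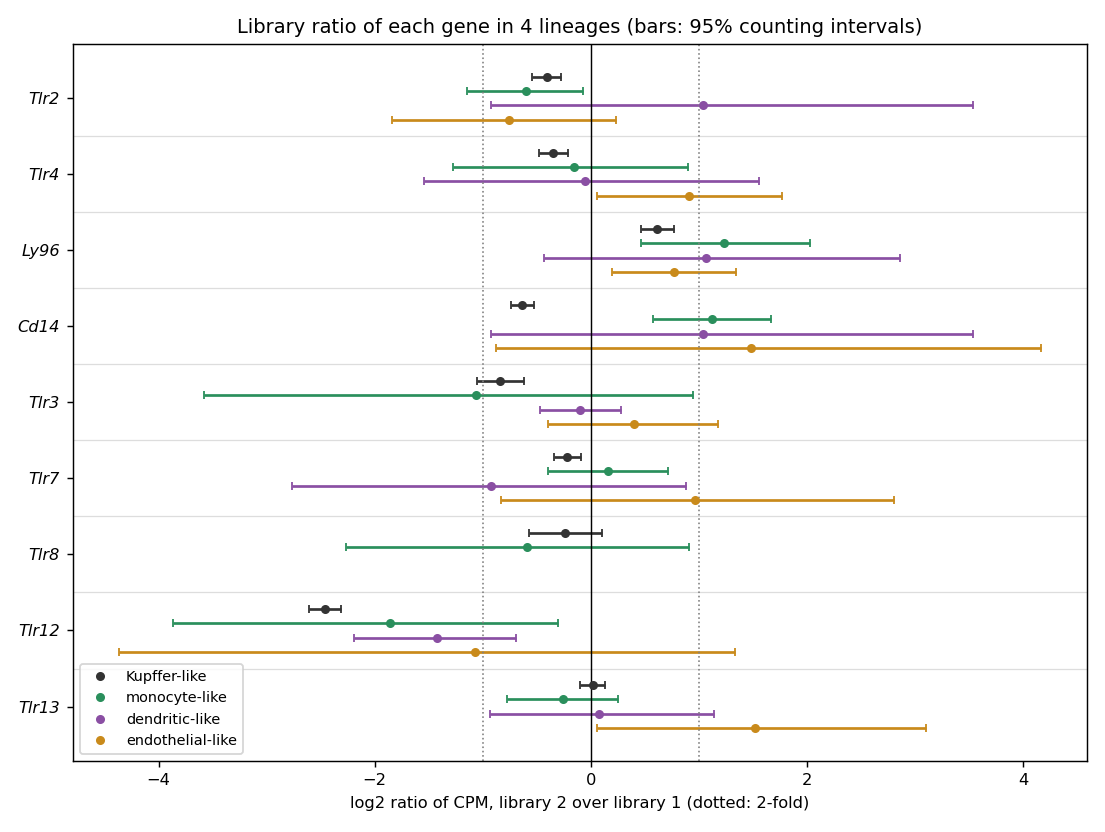
Log2 ratio of CPM, library 2 over library 1, for 9 genes in 4 lineages, with conditional exact 95% intervals and genes with 3 or fewer UMIs in both libraries left out. Ly96 lies above 0 in every lineage shown, with an interval that includes 0 in dendritic-like cells (-0.43 to 2.86), and Tlr12 lies below 0 in every lineage, with an interval that includes 0 in endothelial-like cells. Cd14 is at -0.64 in Kupffer-like cells and at 1.12 in monocyte-like cells.

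B-like and stellate-like cells were numerous enough in library 2 (80 and 121 cells). Ly96 had 26.7 CPM in B-like cells (11.5 to 52.5) and 26.6 CPM in stellate-like cells, each from 8 UMIs. Tlr3 had 26.6 CPM in stellate-like cells, also from 8 UMIs, and 0 UMIs in B-like cells. Tlr13 had 23.3 CPM in stellate-like cells, from 7 UMIs, and 10.00 CPM in B-like cells, from 3 UMIs. Its level in library 2 was 4.54 CPM in erythroid-like cells and 22.4 CPM in endothelial-like cells. How much of the B-like and stellate-like levels is free RNA was not tested.

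Detection of these genes was sparse. After thinning to 1500 UMIs, 51.8% of Kupffer-like cells of library 2 and 42.2% of those of library 1 had no UMI of any of the 10 genes. A further 36.3% of cells of library 2 and 37.3% of cells of library 1 had 1 of them. At 2 genes the shares were 10.3% in library 2 and 15.6% in library 1.

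In Kupffer-like cells, most accessory and trafficking genes, adaptors and kinases, transcription factors and brakes tested were within 2-fold. Of the 4 output genes with at least 10 CPM, 0 lay within 2-fold. The list counts stand beside 2.47% of all genes tested that were at least 2-fold higher in library 2 and 9.24% that were at least 2-fold lower, and the medians beside -0.32 for all genes tested. Among 14 accessory and trafficking genes, 0 stood higher in library 2 by 2-fold or more and 1 lower. That was Ly86, which partners the receptor-like Cd180, with 202 CPM in library 2 and 450 CPM in library 1 (log2 ratio -1.15, -1.21 to -1.10). Cd180 itself had 50.6 CPM in library 2 and 101 CPM in library 1 (interval of the log2 ratio -1.11 to -0.88). The protease gene Ctss had 1286 CPM in library 2 and 2488 CPM in library 1 (-0.95, -0.98 to -0.93). Unc93b1, the chaperone that takes endosomal receptors to their compartment, had 473 CPM in library 2 and 756 CPM in library 1 (-0.68, -0.72 to -0.63). The median of this list was -0.47.

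Of 15 adaptors and kinases with at least 10 CPM, 0 were higher and 1 was lower by 2-fold, the kinase gene Chuk with 32.8 CPM in library 2 and 72.2 CPM in library 1 (-1.14). Next in size of change were the kinase gene Irak4 (-0.98), Tab2 (-0.79) and Traf6 (-0.75). Myd88, the adaptor shared by most of these receptors, had 32.6 CPM in library 2 and 53.4 CPM in library 1 (-0.71, -0.86 to -0.55). Ticam1, the adaptor of Tlr3, had 9.57 CPM in library 2 and 11.3 CPM in library 1 (-0.24, -0.56 to 0.09). The list's median was -0.51.

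Of 8 transcription factors, 3 were at least 2-fold lower in library 2 and 0 were higher. Irf7, which drives interferon genes, had 54.4 CPM in library 2 and 242 CPM in library 1 (-2.15, -2.25 to -2.06). Irf5 had 64.4 CPM in library 2 and 136 CPM in library 1 (-1.08), and Rel, an NF-kB subunit, had 39.6 CPM in library 2 and 81.5 CPM in library 1 (-1.04). Nfkb1, another subunit, was within 2-fold (-0.89). Among 7 brakes on the pathway, the NF-kB inhibitor gene Nfkbia was the 1 at least 2-fold lower, with 247 CPM in library 2 and 520 CPM in library 1 (-1.07). Irak3, which restrains receptor signalling, had 26.6 CPM in library 2 and 13.5 CPM in library 1 (0.98, 0.71 to 1.26), and Pik3ap1 lay at -0.88. Below 10 CPM, Socs1, an inhibitor of cytokine signalling, had 28 UMIs in library 2 and 31 in library 1, or 0.996 and 3.09 CPM (-1.63, -2.43 to -0.85). The medians were -0.71 for transcription factors and -0.42 for brakes.

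Of 15 output genes 4 reached 10 CPM, with 2 at least 2-fold higher and 2 at least 2-fold lower in library 2. The chemokine genes Ccl3 and Ccl4 were higher in library 2, Ccl3 with 21.5 CPM in library 2 and 6.98 CPM in library 1 (1.62, 1.26 to 2.00) and Ccl4 with 70.3 CPM in library 2 and 32.4 CPM in library 1 (1.12, 0.95 to 1.29). The cytokine gene Il1b had 42.0 CPM in library 2 and 144 CPM in library 1 (-1.78, -1.89 to -1.66), and the interferon-induced chemokine gene Cxcl10 had 6.69 CPM in library 2 and 14.3 CPM in library 1 (-1.09, -1.41 to -0.77). Below 10 CPM, the cytokine gene Il6 had 21 UMIs in library 2 and 48 in library 1, or 0.747 and 4.79 CPM (-2.68, -3.49 to -1.91). Il10, an anti-inflammatory cytokine gene, had 67 UMIs in library 2 and 62 in library 1, or 2.38 and 6.18 CPM (-1.38, -1.90 to -0.85). Tnf had 36 UMIs in library 2 and 23 in library 1, or 1.28 and 2.29 CPM (-0.84, -1.64 to -0.02).

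**Figure D5:**
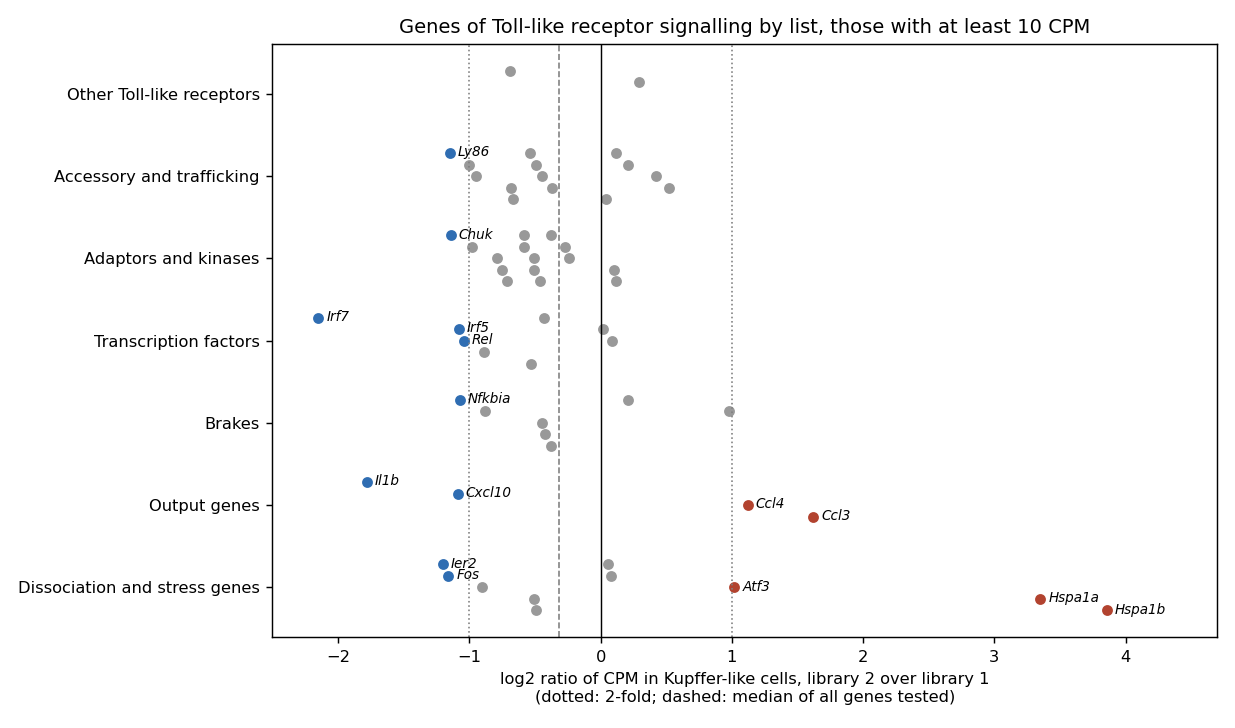
Log2 ratio of CPM in Kupffer-like cells, library 2 over library 1, for genes with at least 10 CPM in 7 lists. Points are genes, red at least 2-fold higher and blue at least 2-fold lower in library 2, and grey within 2-fold. Output genes split, with Ccl3 and Ccl4 higher and Il1b and Cxcl10 lower.

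The genes most like each receptor in their pattern were found by Pearson correlation of log2(CPM + 1) over 10 points, which are 5 lineages in each of 2 libraries, among 6567 genes. Among the 5 are hepatocyte-like cells, which had at most 4 UMIs of any of the 10 genes in a library. Their points thus rest on few UMIs. The points of a library share its depth and free RNA, and the correlations are descriptions. Nearest to Tlr13 were Bin2 (0.991), Cd300c2 (0.985) and Npc2 (0.975), and nearest to Tlr7 were Clec4a1 (0.979), Cybb (0.974) and Apobec1 (0.969). For Tlr3 they were Tbc1d4 (0.957), Clec9a (0.942) and Rtl8a (0.937), and for Tlr12 they were Rtn1 (0.966), Ensa (0.960) and Nudt16 (0.928). Clec9a was itself in the marker list of dendritic-like cells. Tlr2 was followed most closely by Wdr26 (0.966), Dhx40 and Ifit3, Tlr4 by Hgs (0.956), Mgrn1 and Sdf4, and Tlr8 by Lilr4b (0.964), Gngt2 and Nupr1. For Cd14 the nearest were Pag1 (0.943), Pkig and Rasa3, and for Ly96 Ncstn (0.944), Bnip3l and Chmp5.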

How the data were processed

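The authors deposited 1 matrix of raw UMI counts for both libraries. Cell Ranger 3.0.1, R 3.6.1 and the build GRCm38.p5 are named in the submitters' processing notes. Not given in the sources used here are the annotation release, the strand handling and any depth equalisation between libraries. Tlr3 overlaps an antisense gene, Gm45542, on the other strand in the GRCm38 annotation.

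A kept cell joined a lineage if at least 3 of its markers were detected and their UMIs per 10000 passed a level set per lineage. Where several lineages passed, the leading one had to exceed the next by 2-fold, and 106 cells of library 2 and 71 of library 1 that failed this were left out. No doublet caller was run, so droplets with several cells may remain. A further 1666 cells of library 2 and 451 of library 1 had no lineage.

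UMIs were summed per lineage and library and scaled by the total over all genes (CPM). Levels have exact Poisson intervals, shares Clopper-Pearson intervals and ratios conditional exact intervals. Lineages needed 50 cells in both libraries. A count of 0 was set to 3 UMIs in ratios, and no ratio is given where both counts were 3 or fewer and 1 was 0. The calculation of ratios was checked on simulated Poisson counts, the counting error that the intervals assume. That check does not cover variation between cells or mice. Levels were 3' UMIs without length scaling, so genes were not ranked against each other.

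The members and lists were chosen with earlier results of these data known. The gate levels were set after marker totals and first values of the members had been seen. The dendritic level was lowered to 8 from 10 per 10000 after those values had been seen, so that library 1 passed 50 cells, and the setting aside of erythroid-like cells of library 1 and of hepatocyte-like cells was also decided after seeing them. Named were all 10 members, the 3 genes nearest in pattern to each, and from the fixed lists up to 4 genes with at least 30 UMIs, largest change first, and all 10 stress genes. Outside this rule, Myd88, Ticam1, Ccl4, Cxcl10, Tnf, Tlr5 and Tlr11 were chosen after their values were seen. The motifs searched were changed after first matches had been seen. The work used scanpy 1.11.5 and leidenalg 0.10.2 with numpy 2.4.6 and scipy 1.17.1 in python 3.11.15, and matplotlib 3.10.9.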

Additional observations from a re-analysis of the deposited data

Results flagged for a closer look

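For 2 genes, the library ratio lay on opposite sides of 0 in 2 lineages, with both counting intervals clear of 0. Cd14 had a log2 ratio, library 2 over library 1, of 1.12 in monocyte-like cells and -0.64 in Kupffer-like cells. Tlr4 had 0.91 in endothelial-like cells and -0.35 in Kupffer-like cells, and in endothelial-like cells its interval began at 0.06. The median over all genes tested in Kupffer-like cells was -0.32, close to the Tlr4 value. At 1500 UMIs per cell Tlr4 was in 9.73% of endothelial-like cells of library 2 and 3.88% of those of library 1. At 1000 UMIs per cell the order reversed, with 2.52% in library 2 and 3.86% in library 1. Kupffer markers in endothelial-like cells summed to 3963 CPM in library 2 and 1674 CPM in library 1. Their part in the Tlr4 ratio of endothelial-like cells was not tested. The difference between lineages was not tested, since each library is 1 mouse.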

How the results depend on the processing

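With 9 other settings for filters, gates, clusters and scaling, the ratios of Tlr2, Tlr3, Tlr4, Tlr7, Tlr8, Tlr12 and Cd14 in Kupffer-like cells stayed below 0 and that of Ly96 above it. Tlr12 ranged between -2.61 and -2.27, Ly96 between 0.43 and 0.96, Cd14 between -0.68 and -0.42, and Tlr13 between -0.06 and 0.21. The upper end for Ly96 came with free RNA subtracted, which in library 1 rests on 24 T or natural killer-like cells. At a fold threshold of 1.5, 1 gene was higher in library 2 (Ly96) and 3 were lower (Tlr3, Tlr12 and Cd14). With the size factor, the median over the genes was -0.16. With Leiden clusters, 9 genes had the same highest lineage in both libraries, where Kupffer-like and hepatocyte-like cells alone reached 50 cells in both. Cd14 in monocyte-like cells ranged between 1.04 and 1.35 over 8 settings. Dendritic-like cells fell under 50 in library 1 with their gate at 10 per 10000, an alternative chosen after seeing the data, and were not compared there, with 5 markers required, with at most 10% mitochondrial UMIs or with Leiden clusters. Shares depend on thinning by construction. Low UMI counts limit the values of most genes outside Kupffer-like cells. No paired analysis was possible because there is 1 library per genotype, and for the same reason no library could be left out.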
